A study of Mus musculus with 80 samples.

Results

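The 10 genes described here belong to a pair of linked stress responses of the liver cell. The chaperone arm of the endoplasmic reticulum (ER) stress response is given by Hspa5, Xbp1, Herpud1, Dnajb9 and Sdf2l1. The amino acid response that runs through the transcription factor ATF4 is given by Atf4, Ddit3, Trib3, Asns and Psat1. The genes were chosen by name, and all 10 were found among the 22103 rows of the gene table. Liver RNA came from female Balb-C mice, 10 to 12 weeks old, gavaged once a day for 7 days with PFESA-BP2 (Nafion byproduct 2), a perfluoroalkyl ether sulfonic acid. The study set PFESA-BP2 groups at 0.03 mg/kg-day, 0.3 mg/kg-day, 3.0 mg/kg-day and 6.0 mg/kg-day beside a vehicle control at 0 mg/kg-day, and each held 4 individual mice with 1 library per mouse. The labels do not settle the vehicle, which is DMSO in the control titles and deionized water in the design text. All 20 libraries are of whole liver, so fewer cells of a type and less RNA per cell cannot be told apart.

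The ER folds proteins for secretion, and hepatocytes secrete most of the proteins of blood plasma. When unfolded proteins collect there, the sensors IRE1, ATF6 and PERK raise chaperones and degradation factors through the transcription factors XBP1 and ATF6, and slow protein synthesis through phosphorylation of eIF2 alpha. The same phosphorylation, which other kinases set off when amino acids or heme run short, favours translation of ATF4, which switches on genes for amino acid synthesis, amino acid uptake and stress signalling. ATF4 is set largely at translation and XBP1 by splicing of its mRNA, and neither step is measured by a count of reads per gene.

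Total counts per library ranged from 13086755 to 21466978. Of the 22103 rows, 15197 passed a filter on low counts and were tested, among them 9 of the 10 genes. Asns did not pass. In every group 1 library stood apart from its 3 partners, namely libraries 3 (control), 11 (0.03), 15 (0.3), 19 (3.0) and 23 (6.0 mg/kg-day), along the first component of the variation within groups, which held 42.7% of it. Each of these libraries has the third number of its group's 4, and the labels say nothing of what the order of the numbers stands for. For some results of the 10 genes, values are also given with these libraries modelled or left out. The libraries were set apart by the expression of the tested genes themselves, so an adjusted p from those fits can be too small. With a term for them 5639 of all genes passed at 6.0 mg/kg-day, against 3405 without it. The liver markers were present throughout, with a summed level of 11 hepatocyte genes of 85349 to 118591 CPM (counts scaled to a common library size) in the 6.0 mg/kg-day mice and 134749 to 180466 CPM in the controls. At 6.0 mg/kg-day 5 of those 11 genes were lower and 0 were higher. Most of the sum is albumin (Alb), which averaged 104403 CPM over the 20 libraries. Ttr and Apoa2 instead had their highest levels of all libraries, 3504 and 2004 CPM, in library 22, a mouse of the top dose. The drop of the sum stood beside every change described here at that dose, and its part in them was not tested.

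The 2 arms are known to be switched on through short motifs upstream of their genes, and 3 of the 10 genes held such a motif within 250 bases before the transcription start, shown here for that reason. The windows are those of RefSeq on GRCm38.p6, and all 10 genes were matched by symbol, with 11 windows. Capitals mark the motif in each line, read 5′ to 3′ on the strand of the gene.
Hspa5: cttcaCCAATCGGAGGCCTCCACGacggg
Herpud1: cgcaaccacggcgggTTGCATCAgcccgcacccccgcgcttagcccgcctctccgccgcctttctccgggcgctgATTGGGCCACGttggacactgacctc
Asns: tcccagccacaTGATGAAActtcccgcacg

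The Hspa5 stretch lies at chr2:34772020-34772048 on the plus strand and holds the ER stress element, CCAAT and CCACG with 9 bases between them, at bases -65 to -47 from the RefSeq start. The Herpud1 stretch lies at chr8:94386302-94386402 on the plus strand. It holds the second form of that element, ATTGG and CCACG with 1 base between them, at -52 to -42. It also holds, on the opposite strand at -112 to -105, the C/EBP-ATF composite motif through which ATF4 acts, TGATG and AA with 1 base between them. The Asns stretch lies at chr6:7693214-7693243 on the minus strand and holds the composite motif at -23 to -16. The stretches of Hspa5 and Asns lie within the gene as GENCODE M21 draws it, since that annotation starts both genes farther upstream. On both strands, the ER stress element was found in 0.113% of 32851 windows of this length, its second form in 0.0304% and the composite motif in 3.45%. A further motif of XBP1 and ATF6, TGACG followed directly by TGG, was found in 0.563% of windows and in 0 of the 11. A match shows the letters only, not that a factor was bound.

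Per kilobase of exon, Hspa5 was the highest of the 10 genes and Asns the lowest. Averaged over the 20 libraries, Hspa5 had 142 CPM per kb, followed by Herpud1 with 63.6 and Xbp1 with 49.8 CPM per kb. Sdf2l1 had 27.5, Dnajb9 26.8 and Atf4 25.5 CPM per kb, and these 3 did not differ beyond the spread between mice. Trib3 had 9.63, Ddit3 1.26, Psat1 0.306 and Asns 0.0833 CPM per kb. Herpud1 and Xbp1 did not differ beyond their spread at 3.0 mg/kg-day, with 51.1 ± 6.25 and 48.6 ± 7.46 CPM per kb (SD, n = 4), or at 6.0 mg/kg-day, with 52.3 ± 11.2 and 46.9 ± 4.99 CPM per kb. The ATF4 arm rests partly on genes near the limit of counting, with as few as 2 counts for Psat1 and 0 for Asns.

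At the top dose the genes did not move as a block. Herpud1 was the only gene of the chaperone arm that passed the test at 6.0 mg/kg-day, and it fell. Trib3 and Psat1 rose, while Hspa5, Xbp1, Dnajb9, Sdf2l1, Atf4 and Ddit3 did not pass. The test was the quasi-likelihood test of edgeR, fitted on all 20 libraries, and a gene passed with an adjusted p under 0.05 after correction over all 15197 genes. All changes and slopes are on the log2 scale. At this dose 2 of the 9 tested genes were higher and 1 was lower, while 11.2% of all tested genes were higher and 11.2% lower. At 3.0 mg/kg-day 1 of the 9 was lower and 0 higher, against 1.43% of all genes lower and 3.18% higher. At 0.3 mg/kg-day 0 of the 9 passed by edgeR, DESeq2 or limma-voom, while 0.138% of all genes were higher and 0.151% lower by edgeR. An unadjusted p under 0.05 was found there for 2 of the 9 and for 1301 of the 15197 genes. At 0.03 mg/kg-day 0 of the 9 passed by the same tools and 0 had an unadjusted p under 0.05. At that dose 0% of all genes were called higher and 0% lower by edgeR, with 10 genes called by DESeq2, 1 by limma-voom and 565 at an unadjusted p under 0.05. With rising dose rank, 2 of the 9 rose and 1 fell, while 13.7% of all genes rose and 12.7% fell. The median change of the 9 genes was 0.26 on the log2 scale at 6.0 mg/kg-day, and that of all tested genes was -0.018.

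**Figure D1:**
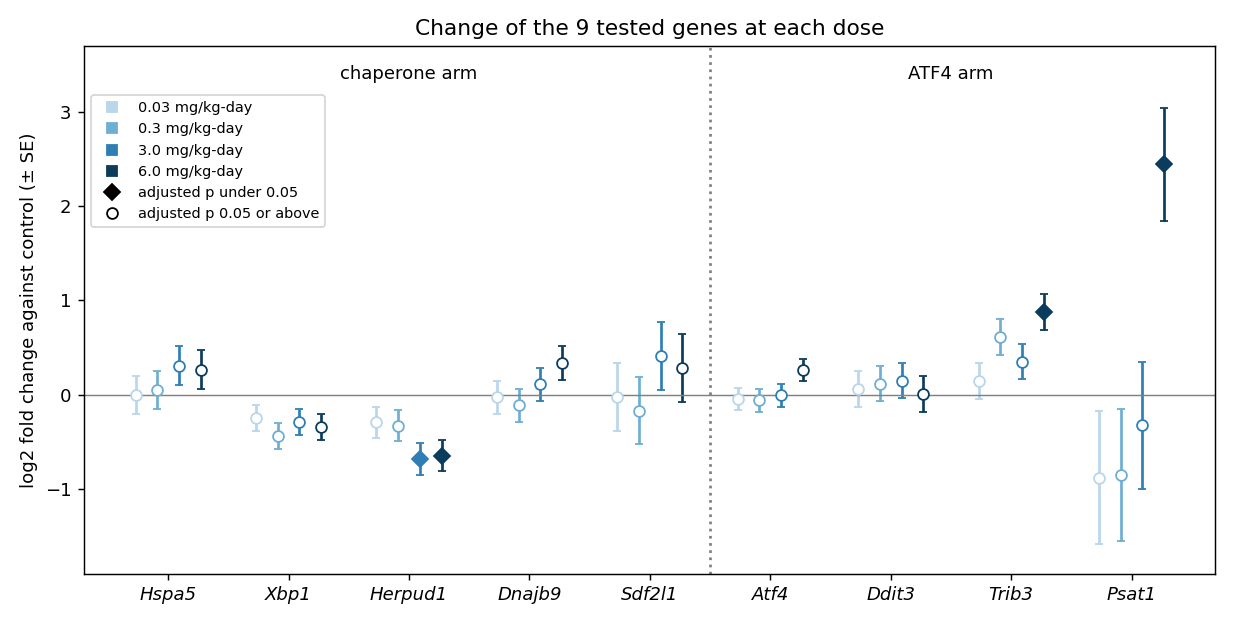
Log2 fold change of the 9 tested genes against control (vertical axis, with SE) at the 4 doses, in rising order (pale to dark). Filled diamonds passed at an adjusted p under 0.05: Herpud1 at the upper 2 doses below 0, and Trib3 and Psat1 at 6.0 mg/kg-day above it.

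Herpud1 (chromosome 8, 94386438 to 94395377, plus strand, GENCODE M21 on GRCm38) encodes an ER membrane protein that organises the degradation of misfolded proteins and is a classic gene of the chaperone arm. Its level was 177, 217, 170 and 202 CPM in the controls and 156, 188, 117 and 162 CPM at 0.03 mg/kg-day. It was 180, 169, 126 and 135 CPM at 0.3 mg/kg-day, 140, 117, 107 and 113 CPM at 3.0 mg/kg-day and 108, 95.8, 129 and 155 CPM at 6.0 mg/kg-day. Every mouse of the upper 2 doses lay below every control, while the lower 2 doses overlapped the controls. All mice of a group lay below all controls for 4.95% of tested genes at 3.0 mg/kg-day and for 8.86% at 6.0 mg/kg-day.

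Herpud1 averaged 119 ± 14.6 CPM at 3.0 mg/kg-day, 1.61-fold below the 192 ± 21.9 CPM of the controls (SD, n = 4 each). That change was -0.68 ± 0.17 (log2, SE), with an edgeR adjusted p of 0.0162. At 6.0 mg/kg-day it averaged 122 ± 26.1 CPM, a change of -0.65 ± 0.17 with an edgeR adjusted p of 0.00726. The call at 3.0 mg/kg-day was lost without library 2, 19 or 20, with edgeR adjusted p values up to 0.0658. That at 6.0 mg/kg-day was kept in each of the 8 fits that left out 1 mouse. Without the 5 libraries apart, the changes were -0.67 at 3.0 mg/kg-day (edgeR adjusted p = 0.0173) and -0.71 at 6.0 mg/kg-day (edgeR adjusted p = 0.00245). With rising dose rank Herpud1 fell by 0.17 per step (edgeR adjusted p = 0.00149). Between 6.0 and 3.0 mg/kg-day the change of Herpud1 was 0.034 ± 0.16 and did not pass (edgeR adjusted p = 0.952).

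Hspa5 (chromosome 2, 34771970 to 34777547, plus strand) encodes BiP, the main ER chaperone, which also holds the stress sensors inactive. Its level was 764, 689, 506 and 671 CPM at 6.0 mg/kg-day, against 586, 680, 376 and 552 CPM in the controls. The groups overlapped, with means of 658 ± 109 CPM at 6.0 mg/kg-day and 548 ± 127 CPM in the controls (SD, n = 4 each). The change was 0.26 ± 0.21 with an edgeR adjusted p of 0.395. At 3.0 mg/kg-day the mice had 614, 669, 529 and 898 CPM, a change of 0.31 ± 0.21 (edgeR adjusted p = 0.589). With the lower 2 doses between 399 and 729 CPM, Hspa5 did not pass at any dose. Its slope on dose rank of 0.084 did not pass either (edgeR adjusted p = 0.168), although it did when the libraries apart were modelled (0.0210), and with these left out the adjusted p was 0.0957. Within a library Herpud1 reached 0.126 to 0.228 of the level of Hspa5 at 3.0 mg/kg-day and 0.139 to 0.256 at 6.0 mg/kg-day, against 0.302 to 0.453 in the controls. This ratio of CPM is a description and was not tested.

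Sdf2l1 (chromosome 16, 17130138 to 17132383, minus strand) encodes an ER protein that works with BiP and its partners. Its level was 43.5, 44.3, 14.8 and 34.0 CPM at 6.0 mg/kg-day, against 32.1, 38.9, 17.5 and 23.9 CPM in the controls. Its spread within groups was the widest among the 5 genes of the chaperone arm, with a coefficient of variation of 30.8% to 40.2%. The change was 0.28 ± 0.36 at 6.0 mg/kg-day (edgeR adjusted p = 0.622) and 0.41 ± 0.36 at 3.0 mg/kg-day (edgeR adjusted p = 0.715).

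The libraries apart carried much of that spread. Sdf2l1 was lowest in the library apart in 5 of 5 groups, at 13.0 to 21.2 CPM against 23.9 to 46.9 CPM in the other 15 libraries. Hspa5 was also lowest there in 5 of 5 groups, at 376 to 529 CPM against 489 to 898 CPM. Herpud1 was lowest there in 4 groups. Xbp1, Dnajb9 and Trib3 were instead highest in the library apart in 3 groups each. The mean difference within groups was -1.13 for Sdf2l1, -0.51 for Hspa5, 0.21 for Xbp1, 0.21 for Dnajb9 and 0.33 for Trib3 on the log2 scale. These values are a description, since the libraries were set apart by their expression.

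Xbp1 (chromosome 11, 5520659 to 5525893, plus strand) encodes the transcription factor that IRE1 activates by splicing, and the counts do not separate the spliced from the unspliced mRNA. Its level was 147, 132, 169 and 161 CPM at 6.0 mg/kg-day, against 151, 211, 213 and 198 CPM in the controls. Control library 1 lay within the range of the treated mice, so the groups overlapped. The change was -0.34 ± 0.14 with an edgeR adjusted p of 0.0786. It was -0.44 ± 0.14 at 0.3 mg/kg-day (edgeR adjusted p = 0.253), where the mice had 156, 128, 151 and 137 CPM. A term for the libraries apart brought Xbp1 past the threshold at 6.0 mg/kg-day (edgeR adjusted p = 0.0224), and so did leaving out library 1 (0.0246) or library 23 (0.0466). With all 5 libraries apart left out it did not pass, at -0.33 and 0.0778.

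Dnajb9 (chromosome 12, 44205559 to 44210326, minus strand) encodes ERdj4, a co-chaperone of BiP and a target of XBP1. Its level was 74.0, 67.9, 106 and 80.4 CPM at 6.0 mg/kg-day, against 59.8, 60.6, 75.9 and 63.9 CPM in the controls. The highest value of both groups was that of the library apart. The change was 0.34 ± 0.18 with an edgeR adjusted p of 0.184, and at the other doses the change lay between -0.11 and 0.11.

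**Figure D2:**
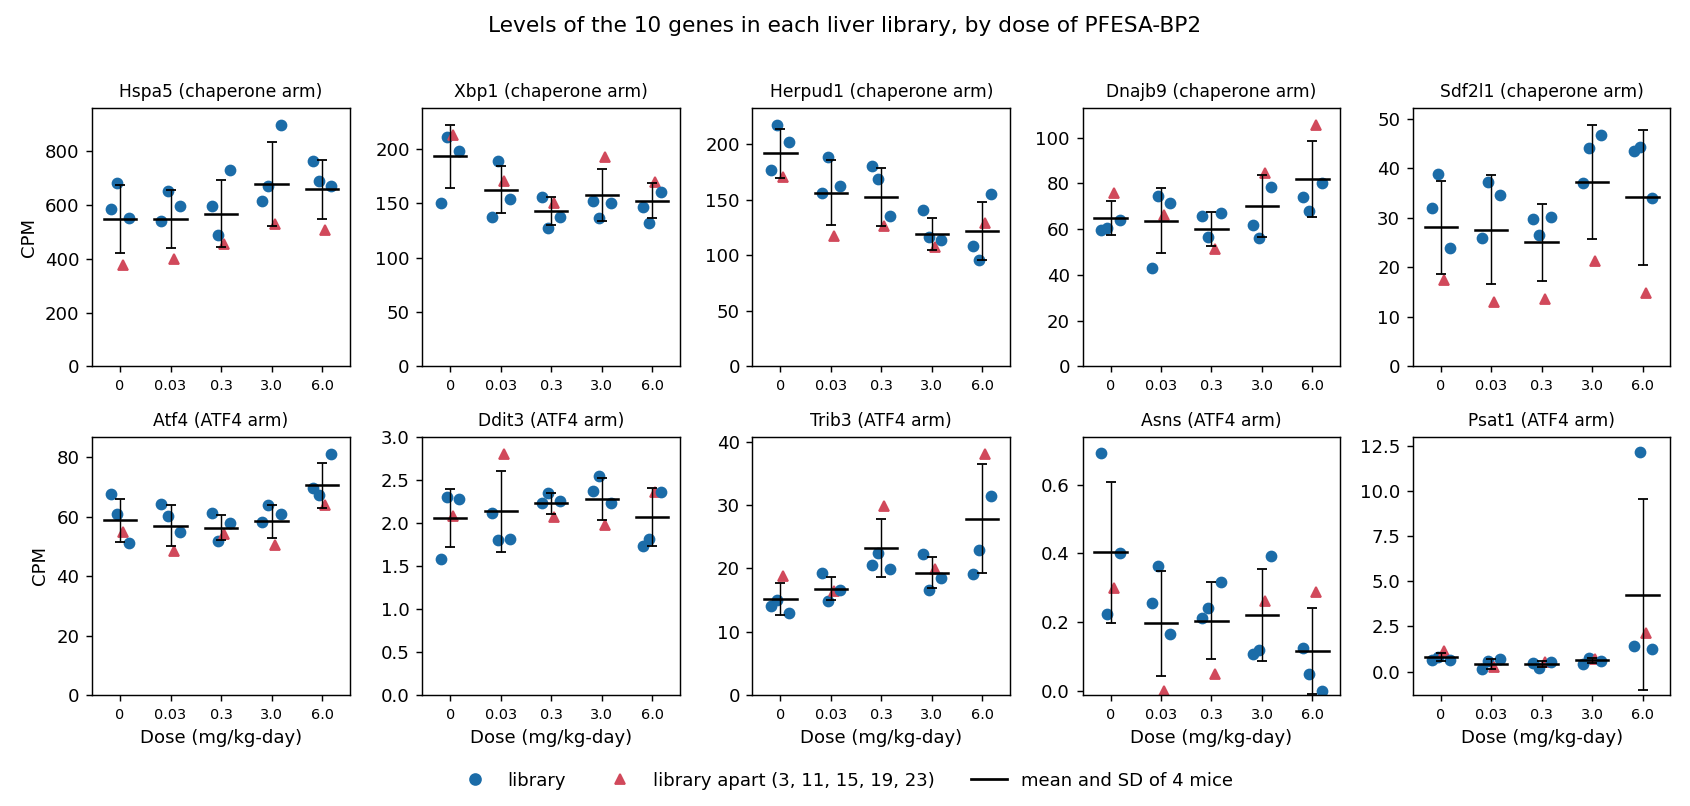
CPM of each of the 10 genes (vertical axes) in each of the 20 libraries by dose (0 is the control); bars give the mean and SD of 4 mice, and red triangles the libraries apart. Herpud1 lies below all controls at the upper 2 doses, Sdf2l1 is lowest in the library apart in 5 of 5 groups, and Psat1 reaches 12.1 CPM in 1 mouse at 6.0 mg/kg-day.

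Atf4 (chromosome 15, 80255184 to 80257541, plus strand) encodes the factor that gives the second arm its name. Its level was 69.8, 67.4, 63.9 and 81.3 CPM at 6.0 mg/kg-day, against 67.8, 61.1, 55.0 and 51.2 CPM in the controls. Control library 1 overlapped the treated mice. The change was 0.26 ± 0.12 with an edgeR adjusted p of 0.121, and at the lower 3 doses the change lay between -0.062 and -0.0091. With a term for the libraries apart Atf4 passed at 6.0 mg/kg-day (edgeR adjusted p = 0.0362), and with them left out it did not (0.0540). Without those libraries the direction at 3.0 mg/kg-day turned to 0.036.

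Ddit3 (chromosome 10, 127290774 to 127296288, plus strand) encodes CHOP, a factor of the late, death-promoting phase of ER stress. It had 1.74, 1.81, 2.36 and 2.37 CPM at 6.0 mg/kg-day, against 1.58, 2.31, 2.09 and 2.28 CPM in the controls. The values interleaved, and the change was 0.0089 ± 0.19 (edgeR adjusted p = 0.978). With 28 to 56 counts per library, its level in all 20 libraries lay between 1.58 and 2.81 CPM.

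Trib3 (chromosome 2, 152337422 to 152344032, minus strand) encodes a pseudokinase that is switched on by ATF4 and CHOP and feeds back on them. Its level was 14.0, 15.0, 18.8 and 13.0 CPM in the controls and 19.2, 14.8, 16.4 and 16.6 CPM at 0.03 mg/kg-day. It was 20.6, 22.4, 29.8 and 19.9 CPM at 0.3 mg/kg-day, 22.3, 16.6, 20.0 and 18.5 CPM at 3.0 mg/kg-day and 19.1, 22.8, 38.1 and 31.4 CPM at 6.0 mg/kg-day. All mice of the 0.3 and 6.0 mg/kg-day groups lay above all controls, as they did for 3.71% and 9.68% of tested genes. At 3.0 mg/kg-day the mice overlapped the controls.

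Trib3 averaged 27.9 ± 8.57 CPM at 6.0 mg/kg-day, 1.84-fold above the 15.2 ± 2.53 CPM of the controls (SD, n = 4 each). The change was 0.88 ± 0.19 with an edgeR adjusted p of 0.00200, and it was kept in each of the 8 fits that left out 1 mouse. Without the 5 libraries apart it was 0.82 (edgeR adjusted p = 0.000789). At 0.3 mg/kg-day the change of 0.61 ± 0.19 did not pass (edgeR adjusted p = 0.232), although it did when the libraries apart were modelled (0.0357), and with these left out the adjusted p was 0.0871. At 3.0 mg/kg-day it was 0.35 ± 0.19 (edgeR adjusted p = 0.439), so the order of the means did not follow the dose. Trib3 rose with dose rank by 0.20 per step (edgeR adjusted p = 0.00243). Within a library, Trib3 reached 0.273 to 0.597 of the level of Atf4 at 6.0 mg/kg-day and 0.207 to 0.341 in the controls.

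Psat1 (chromosome 19, 15904678 to 15947337, minus strand) encodes phosphoserine aminotransferase, of serine synthesis. It had 0.642, 0.787, 1.12 and 0.628 CPM in the controls and 0.128, 0.569, 0.251 and 0.715 CPM at 0.03 mg/kg-day. It had 0.480, 0.192, 0.529 and 0.526 CPM at 0.3 mg/kg-day, 0.431, 0.770, 0.677 and 0.616 CPM at 3.0 mg/kg-day and 1.43, 12.1, 2.13 and 1.27 CPM at 6.0 mg/kg-day. The mice of the top dose all lay above every other mouse, the lowest at 1.27 CPM against 1.12 CPM in the highest control. All mice of that dose lay above all controls for 9.68% of tested genes, and above all 3.0 mg/kg-day mice for 3.26%. For Psat1, library 22 stood far above its 3 partners. Its 241 counts compare with 23, 37 and 23 counts in libraries 21, 23 and 24 and with 11 to 15 counts in the controls.

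The change of Psat1 at 6.0 mg/kg-day was 2.44 ± 0.60 with an edgeR adjusted p of 0.00578. Without library 22 it was 1.03 and did not pass (edgeR adjusted p = 0.0865), and with only these 2 groups in the fit the adjusted p was 0.0505. Against 3.0 mg/kg-day the change was 2.77 ± 0.61 (edgeR adjusted p = 0.0202), the only one of the 9 genes that passed between these doses, where 1.03% of all genes were higher and 1.06% lower. That call was lost without library 17, 18 or 22, with edgeR adjusted p values of 0.0899, 0.0606 and 0.145. The trend with dose rank of 0.69 per step (edgeR adjusted p = 0.00451) was also lost without library 22, at 0.26 and 0.129. At 0.3 mg/kg-day all mice lay below all controls, as they did for 2.97% of tested genes, but the change of -0.85 ± 0.70 did not pass (edgeR adjusted p = 0.821).

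The summed markers of T and NK cells were also higher in library 22 than in any other. Their 9 genes summed to 129 CPM in library 22, to 3.80 to 10.8 CPM in the other 3 mice of that dose and to 5.48 to 7.87 CPM in the controls. Chosen after their values were seen, Lck, a T cell kinase gene, had 87.7 CPM in library 22. Cd3e and Cd3g, genes of CD3 chains in the T cell receptor complex, had 10.3 and 14.1 CPM there. In the controls they had 0.820 to 2.53 CPM (Lck), 0.628 to 1.35 CPM (Cd3e) and 0.298 to 0.956 CPM (Cd3g). Of the 9 genes, Cd4, Cd8a, Nkg7 and Ncr1 were not highest in library 22, with 2.97, 0.252, 0.252 and 0.655 CPM there. Their highest levels in other libraries were 3.43, 0.392, 0.863 and 0.771 CPM. Cd8a and Nkg7 were at 0 in 1 library each. The 6 neutrophil and monocyte genes summed to 5.56 to 25.4 CPM at 6.0 mg/kg-day, with the highest value again in library 22, and to 1.14 to 2.32 CPM in the controls. The 10 Kupffer cell genes summed to 562 CPM in library 22 and to 326 to 398 CPM in the controls, and the 8 B and plasma cell genes to 41.0 CPM in library 22 and to 16.5 to 34.1 CPM in the controls. Both sums were highest in library 22 of the 20 libraries. The part of all these cells in the level of Psat1 was not tested.

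Asns (chromosome 6, 7675169 to 7693254, minus strand) encodes asparagine synthetase, the textbook target of ATF4. It was barely present in these livers. It had 2, 1, 5 and 0 counts at 6.0 mg/kg-day, against 14, 4, 4 and 7 counts in the controls. That is 0.116 ± 0.126 CPM at 6.0 mg/kg-day and 0.403 ± 0.205 CPM in the controls (SD, n = 4 each), and the groups overlapped. The 0 of library 24 allows up to 0.165 CPM and that of library 11, at 0.03 mg/kg-day, up to 0.151 CPM. Both limits are the level of 3 counts and cover counting error only. Asns did not reach the minimum for the test, so no fold change or p is given.

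Averaged over its genes, the chaperone arm of the treated groups lay between -0.20 and -0.032 from the controls on the log2 scale, and the ATF4 arm exceeded every control only in some mice of the top dose. The chaperone arm averaged 7.00 ± 0.17, 6.87 ± 0.29, 6.80 ± 0.22, 6.97 ± 0.13 and 6.96 ± 0.13 log2 CPM in the groups from control to 6.0 mg/kg-day. The ATF4 arm averaged 1.94 ± 0.09, 1.61 ± 0.23, 1.77 ± 0.12, 1.85 ± 0.11 and 2.23 ± 0.30 log2 CPM. At 6.0 mg/kg-day libraries 22 and 23 had 2.50 and 2.48, while libraries 21 and 24 had 1.96 and 1.98, within the 1.85 to 2.03 of the controls. The difference between the arms, chaperone minus ATF4, was 0.33 lower at 6.0 mg/kg-day than in the controls, where its SD over the 4 treated mice was 0.42. Its size depends on how the arm is summarised and on single libraries, since over medians in place of means the difference was -1.27, and over means without library 23 it was -0.20. With 5 genes per arm a median is the level of 1 gene, which for the ATF4 arm of library 22 is Psat1. With Asns left out of its arm, a choice made after seeing the data, the ATF4 arm was 0.69 higher at 6.0 mg/kg-day and the difference between arms was lower by 0.72. No test was made of these means, and Psat1 of library 22 enters them.

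**Figure D3:**
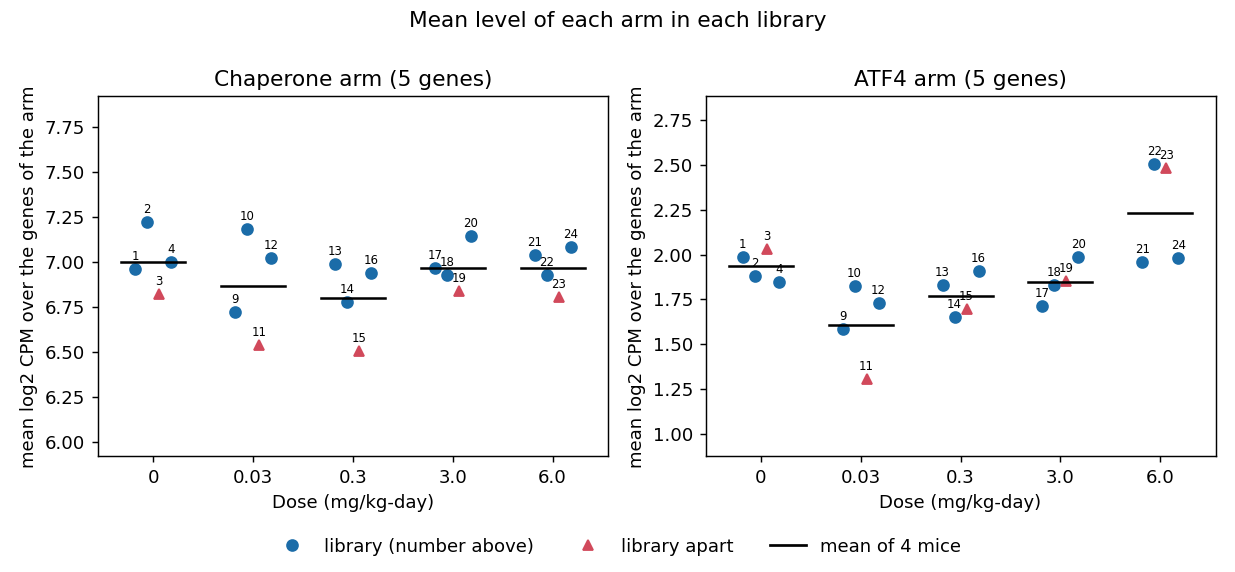
Mean log2 CPM of the 5 genes of the chaperone arm (left) and of the ATF4 arm (right) in each library by dose (0 is the control), with library numbers; lines give the mean of 4 mice. Both vertical axes span the same range of log2 units, and at 6.0 mg/kg-day the ATF4 arm of libraries 22 and 23 lies above the controls while libraries 21 and 24 lie within their range.

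Between neighbouring doses few of the 9 genes differed. From 0.3 to 3.0 mg/kg-day 0 passed by edgeR, DESeq2 or limma-voom and 1 had an unadjusted p under 0.05, namely Herpud1 at -0.35 ± 0.16. At that step 2.41% of all genes were higher and 0.862% lower by edgeR, and 2502 had an unadjusted p under 0.05. Sdf2l1, at 0.58 ± 0.36, passed when the libraries apart were modelled (edgeR adjusted p = 0.0129) and also when they were left out (0.0483). Tested for a difference at any dose, 3 of the 9 passed, against 21.4% of all genes. These were Herpud1 (edgeR adjusted p = 0.0172), Trib3 (0.00771) and Psat1 (0.000344).

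Related genes of the ER stress pathway were read at 6.0 mg/kg-day, beside the 11.2% of all genes that rose and the 11.2% that fell. Of 8 genes of stress sensors and the proteases that activate them, 0 passed at 6.0 mg/kg-day by edgeR, while 4 had an unadjusted p under 0.05 and DESeq2 and limma-voom each called 1 lower. Of all 15197 tested genes, 5248 had an unadjusted p under 0.05, 3796 were called by DESeq2 and 3398 by limma-voom. Atf6, the sensor that is cut in the Golgi, had 77.8 ± 15.7 CPM at 6.0 mg/kg-day and 103 ± 19.3 CPM in the controls, a change of -0.41 (edgeR adjusted p = 0.0522). On a list of 22 other ER chaperones and folding enzymes, 2 rose and 0 fell. Ostc, on that list but a subunit of the glycosylation complex and not a chaperone, had 77.2 ± 19.7 CPM at 6.0 mg/kg-day. In the controls Ostc had 36.0 ± 6.68 CPM, and the change was 1.10 (edgeR adjusted p = 4.46e-05). Txndc5, a disulfide isomerase, rose by 0.60 (edgeR adjusted p = 0.00253). Manf, a secreted stress protein, had a difference of 0.95 ± 0.35 that did not pass (edgeR adjusted p = 0.0549). The median of the 22 genes was 0.026. DESeq2 called 5 of them higher.

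Of 19 genes of ER-associated degradation, the process in which Herpud1 acts, 3 were higher and 3 lower in the 6.0 mg/kg-day mice, and their median change was -0.095. Derl1, a channel protein, rose by 0.46 to 208 ± 3.25 CPM, against 151 ± 10.3 CPM in the controls (edgeR adjusted p = 0.000673). Ufd1, of the extraction complex, rose by 0.73 (edgeR adjusted p = 0.0148). Erlec1, a lectin, fell by 0.49 (edgeR adjusted p = 0.00228), and Sel1l, the partner of the ubiquitin ligase, fell by 0.44 (edgeR adjusted p = 0.0234). The calls of Ufd1 (without library 3 or 22) and Sel1l (without library 4, 21 or 22) were lost when 1 mouse was left out, with adjusted p up to 0.0695 and 0.0783. Without library 22, 2 of the 19 rose and 1 fell. Over all genes, 2346 to 4653 passed in the 8 fits that left out 1 mouse, against 3405 with all mice. The share of all genes in the fit without library 22 is not given here.

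Of 24 genes of ER entry and early secretion, 7 were higher and 0 lower in the 6.0 mg/kg-day mice, and their median change was 0.34. Sec11c, a signal peptidase subunit, rose by 0.70 (edgeR adjusted p = 0.00230) and Stt3a, a catalytic subunit of glycosylation, by 0.47 (0.00386). Ssr2 and Ssr3, subunits of the translocon-associated complex, rose by 0.39 and 0.51 (edgeR adjusted p = 0.0156 and 0.0214). The call of Ssr2 was lost without library 3, and that of Ssr3 without library 1, 4 or 23, with adjusted p up to 0.0577 and 0.0631. Without library 22, 4 of the 24 rose, while 2346 to 4653 of all genes passed in the 8 fits without 1 mouse. With rising dose rank, 12 of the 24 rose and 0 fell.

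The partners of the ATF4 arm moved in both directions. Of 17 tested eIF2 alpha kinases and stress-response regulators, 5 were higher and 3 lower in the 6.0 mg/kg-day mice, and their median change was -0.013. Gdf15, a secreted stress hormone, had 18.9 ± 3.76 CPM at 6.0 mg/kg-day and 2.86 ± 0.56 CPM in the controls, a change of 2.72 ± 0.20 (edgeR adjusted p = 1.12e-08). Chac1, a glutathione-degrading enzyme and a target of ATF4, went the other way. It had 0.0622, 0.252, 0.115 and 0.331 CPM at 6.0 mg/kg-day, against 2.22, 2.42, 1.49 and 1.54 CPM in the controls. All treated mice lay below all controls, and the change was -3.26 ± 0.42 (edgeR adjusted p = 1.04e-05). Vldlr, on that list but a lipoprotein receptor, rose by 1.56 (edgeR adjusted p = 0.000154), and Cebpg, a dimer partner of ATF4, fell by 0.53 (0.00110). Without library 22, 3 of the 17 rose and 2 fell, while 2346 to 4653 of all genes passed in the 8 fits without 1 mouse.

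Of 10 tested genes of serine, one-carbon and other amino acid synthesis, 4 were higher and 3 lower in the 6.0 mg/kg-day mice, and their median change was 0.36. Cth, of cysteine synthesis, rose by 0.77 (edgeR adjusted p = 0.00578). Mthfd2, a mitochondrial folate enzyme and a target of ATF4, had 1.12, 3.43, 1.61 and 1.05 CPM at 6.0 mg/kg-day, against 0.247, 0.956, 0.522 and 0.628 CPM in the controls. As with Psat1, its highest value was that of library 22. The change was 1.62 ± 0.42 (edgeR adjusted p = 0.00822), and without library 22 it was 1.10 and did not pass (0.0640). Got1, an aspartate aminotransferase, fell by 1.33 (edgeR adjusted p = 0.00547), and Shmt1, a cytosolic serine enzyme, fell by 0.46 (0.00172). Without library 22, 2 of the 10 rose and 2 fell, while 2346 to 4653 of all genes passed in the 8 fits without 1 mouse. Phgdh, which acts a step before Psat1, was chosen after its values were seen. It had 0, 2.47, 0.576 and 0 CPM in the 4 mice of the top dose and 0.0494, 0, 0 and 0.114 CPM in the controls, and it did not pass the filter on low counts.

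Of 7 tested amino acid transporters of the ATF4 response, 0 were higher and 3 lower in the 6.0 mg/kg-day mice, and their median change was -0.48. Slc3a2, the heavy chain shared by several transporters, fell by 0.84 (edgeR adjusted p = 0.000153). Slc38a2, a carrier of small neutral amino acids, fell by 0.48 (edgeR adjusted p = 0.0129), and Slc1a4, of the same substrates, by 0.57 (0.0269). The call of Slc38a2 was lost without library 4 and that of Slc1a4 without library 1, 4, 21 or 22, with adjusted p up to 0.0571 and 0.101. Slc1a5, a glutamine carrier, had a difference of 1.14 that did not pass (edgeR adjusted p = 0.0801), with 2.32 CPM in library 22 and a difference of 0.37 without it. Of 13 aminoacyl-tRNA synthetases of the ATF4 response, 0 passed by edgeR or limma-voom, 3 had an unadjusted p under 0.05, and DESeq2 called 2 higher and 1 lower. Among all 15197 tested genes, 5248 had an unadjusted p under 0.05 and DESeq2 called 3796.

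Of 10 tested cytosolic heat shock genes, the counterpart of the ER chaperones outside the ER, 3 were higher and 0 lower in the 6.0 mg/kg-day mice, and their median change was 0.39. Hsp90aa1 had 330 ± 115 CPM at 6.0 mg/kg-day and 107 ± 12.0 CPM in the controls, a change of 1.63 (edgeR adjusted p = 4.39e-06). It had already risen at 3.0 mg/kg-day, by 1.20 (edgeR adjusted p = 0.000507). Of the genes named from the other lists, Gdf15 also passed at 3.0 mg/kg-day as higher, by 1.97 (edgeR adjusted p = 2.34e-06). Chac1, Cebpg and Erlec1 passed there as lower, by -1.49, -0.40 and -0.39 (edgeR adjusted p = 0.0148, 0.0336 and 0.0390). At 6.0 mg/kg-day Hspa1b, an inducible chaperone, rose by 1.80 (edgeR adjusted p = 0.000735), which is uncertain because reads could be split with its near-identical copy Hspa1a. Hspb1, a small heat shock protein gene, rose by 1.06 at that dose (edgeR adjusted p = 0.0206). The call of Hspb1 was lost without library 1 or 24, with adjusted p up to 0.0921.

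**Figure D4:**
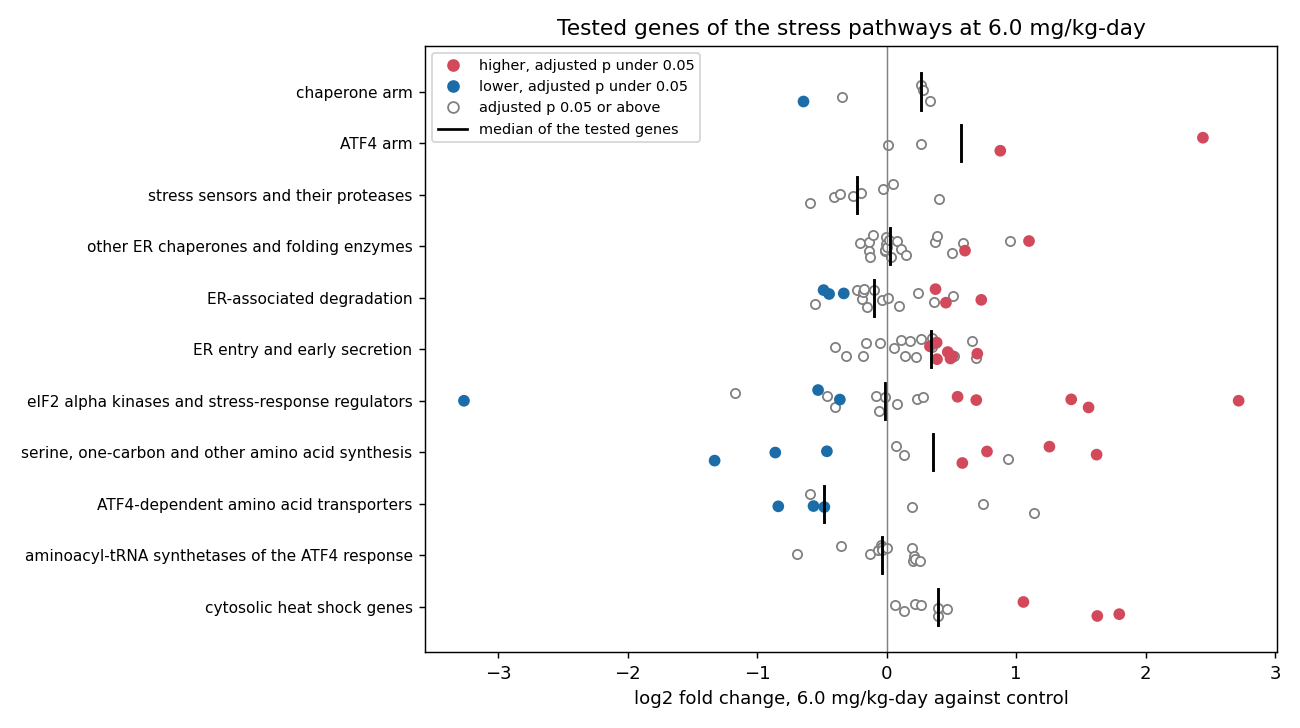
Log2 fold change at 6.0 mg/kg-day against control (horizontal axis) of each tested gene of the chaperone arm, the ATF4 arm and 9 lists of related genes; red and blue points passed the test as higher and lower, and black lines give the median of each list. The lists of other ER chaperones, ER entry and cytosolic heat shock genes have passing genes on the right side only (2, 7 and 3), and the amino acid transporters on the left side only (3). The 2 of the chaperone list include Ostc, a glycosylation subunit.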

How the data were processed

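The authors deposited a table of expected counts per gene, with 1 column per mouse and 58.0% of values whole (unit read from the values). The submitters' processing notes name Partek and GRCm38.p5; how reads were aligned and counted, on which annotation and whether by strand, was not given in those sources. Each library ran on 4 lanes, which the table holds as 1 column; 0 columns of per-sample values were not used. The counts were rounded, filtered with filterByExpr (minimum count 10; 15197 of 22103 rows kept) and scaled by TMM. CPM are on the scaled totals, CPM per kb on GENCODE M21 exon lengths, and log2 CPM of the arms with a prior count of 2.

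The test was edgeR 4.0.16's quasi-likelihood test (R 4.3.3) with a mean per group over 20 libraries, 15 residual degrees of freedom and Benjamini-Hochberg adjustment over all tested genes. The SE of a change is its size over the root of its F statistic. A slope on dose rank gave the trend. Alternatives were RLE factors, no scaling, no filter, DESeq2 1.42.0, limma-voom 3.58.1, 2 groups alone, each library left out, and the libraries apart modelled or left out. The fit was checked on simulated counts. The 10 genes and all gene lists were chosen with earlier results of these data known, and named pathway genes come from the 4 with the smallest p at 6.0 mg/kg-day in each list. Replicates are individual mice.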

Additional observations from a re-analysis of the deposited data

Results flagged for a closer look

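Of 50 sets of 4 mice (10 genes at 5 doses), 2 had a single mouse farther from its partners than Dixon's test allows for 4 samples at the 95% level. Chance gives such a gap in about 1 of 20 sets. Both were sets of Psat1. At 6.0 mg/kg-day library 22 had 12.1 CPM and the other 3 mice had 1.27 to 2.13 CPM. At 0.3 mg/kg-day library 14 had 0.192 CPM, which is 4 counts, and the other 3 mice had 0.480 to 0.529 CPM.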

How the results depend on the processing

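No paired analysis was possible because the groups share no replicate numbers. Of 1106 alternatives over 63 results of single genes, 1030 kept direction and side of the threshold, 11 lost the call, 13 gained it and 52 turned direction. No result that turned had passed, and the largest of them was 0.22 in size. The cause of each change was not tested. The libraries apart were known from earlier results of these data, and leaving Asns, or those libraries, out of the arm means was chosen after seeing the data.

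With the libraries apart modelled, the genes called higher were 1 at 0.3 mg/kg-day, 1 from 0.3 to 3.0 mg/kg-day, 2 from 3.0 to 6.0 mg/kg-day, 3 at 6.0 mg/kg-day (Atf4 added) and 3 on the trend (Hspa5 added). The genes called lower were then 2 at 6.0 mg/kg-day and 2 on the trend, and 6 were called at any dose. Of all 15197 tested genes, 6035 were called at any dose with this term and 5824 on the trend, against 3255 and 4013 without it. Between doses the term gave 1862 of all genes from 0.3 to 3.0 mg/kg-day and 1400 from 3.0 to 6.0 mg/kg-day. Without those libraries, 1 gene was higher from 0.3 to 3.0 mg/kg-day. DESeq2 called 1 gene higher on the trend, where it gave no adjusted p for Psat1. From 3.0 to 6.0 mg/kg-day limma-voom called 0 genes higher and the fit of 2 groups alone 0. At 6.0 mg/kg-day the fit of 2 groups called 1 gene higher. With 1 library left out, the genes called higher ranged from 1 to 2 at 6.0 mg/kg-day, from 0 to 1 from 3.0 to 6.0 mg/kg-day and from 1 to 3 on the trend. The genes called lower then ranged from 0 to 1 at 3.0 mg/kg-day, from 1 to 2 at 6.0 mg/kg-day and from 1 to 2 on the trend, and 2 to 4 were called at any dose.

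The difference between the arms, taken over medians, was -0.34, -0.54, -0.76 and -1.27 from the lowest to the top dose. With 5 genes per arm, each median is the level of a single gene in a library. In the ATF4 arm that gene is Ddit3, except in library 22, where it is Psat1. In the chaperone arm it is Herpud1 or Xbp1. The difference over means without Asns was -0.72 at 6.0 mg/kg-day. Over means of all genes of the arms, where the difference was 0.19, -0.034, 0.058 and -0.33, leaving out 1 library gave ranges from 0.10 to 0.28, from -0.13 to 0.06, from -0.03 to 0.15 and from -0.45 to -0.20.

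Changes that turned direction were small. At 0.03 mg/kg-day, no scaling gave 0.037 for Hspa5, 0.019 for Dnajb9 and 0.012 for Sdf2l1, limma-voom gave 0.0080 and the model of the libraries apart 0.0024 for Hspa5. For Atf4 at 3.0 mg/kg-day, no scaling gave 0.0026 and the fit of 2 groups 0.0045. Without the libraries apart, Dnajb9 was 0.047, Sdf2l1 0.053, Atf4 0.0039 and Ddit3 -0.091 at 0.03 mg/kg-day, Dnajb9 0.042 at 0.3 mg/kg-day, Atf4 0.036 at 3.0 mg/kg-day and Ddit3 -0.031 at 6.0 mg/kg-day. From 3.0 to 6.0 mg/kg-day, Xbp1 was then 0.011 and Herpud1 -0.039. With 1 library left out, the ranges at 0.03 mg/kg-day were -0.15 to 0.13 for Hspa5, -0.19 to 0.22 for Sdf2l1, -0.11 to 0.037 for Atf4, -0.096 to 0.14 for Ddit3 and -0.10 to 0.12 for Dnajb9. At 0.3 mg/kg-day they were -0.12 to 0.015 for Atf4, -0.34 to 0.035 for Sdf2l1 and -0.094 to 0.17 for Hspa5. They were -0.071 to 0.067 for Atf4 at 3.0 mg/kg-day and -0.11 to 0.090 for Ddit3 at 6.0 mg/kg-day. For Ddit3 they were -0.012 to 0.031 on the trend and -0.025 to 0.095 from 0.3 to 3.0 mg/kg-day. From 3.0 to 6.0 mg/kg-day they were -0.11 to 0.059 for Xbp1, -0.10 to 0.13 for Herpud1, -0.15 to 0.12 for Hspa5 and -0.32 to 0.12 for Sdf2l1.

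Over all genes, 3405 passed at 6.0 mg/kg-day, against 1726 with 2 groups alone, 5639 with the term and 5228 without the libraries apart, and 2346 to 4653 with 1 library left out. At 3.0 mg/kg-day 701 passed, against 1393 with the term. At 0.3 mg/kg-day 44 passed, against 186 by DESeq2, 306 with the term, 158 without those libraries and 12 to 51 with 1 library left out. With the libraries apart modelled, the lists at 6.0 mg/kg-day held 1 higher and 4 lower of 8 stress sensors and 7 higher of 22 chaperones and folding enzymes. They held 4 higher and 5 lower of 19 degradation genes, and 11 higher and 2 lower of 24 genes of ER entry. Of 17 regulators 5 were then higher and 5 lower, and of 10 heat shock genes 5 were higher. Of 10 amino acid synthesis genes 4 were higher and 3 lower. Of 7 amino acid transporters 1 was higher and 3 lower, and of 13 synthetases 1 was higher and 2 lower. Depth limits Psat1, Ddit3 and Asns, with 2 to 241, 28 to 56 and 0 to 14 counts per library.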
